A study of Mus musculus with 18 samples.

Results

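Glutathione transferases (GSTs) are the enzymes that couple the tripeptide glutathione to electrophilic compounds, and 10 of their genes were followed here in GC1spg cells exposed to busulfan (Bu). The 10 genes were Gsta4 of the alpha class, Gstm1 and Gstm5 of the mu class, Gstp1 of the pi class, Gstt1 of the theta class, Gsto1 of the omega class, Gstk1 of the kappa class, Gstz1 of the zeta class, and the membrane-bound Mgst1 and Mgst3. They were taken by gene name from the deposited gene table, where all 10 were found among 31643 genes. Each of the 10 passed the filter on low counts in all 5 comparisons made below. Bu is a bifunctional alkylating agent whose main route of clearance is conjugation with glutathione, and in human liver the alpha class enzyme GSTA1 does most of this work. The alpha, mu, pi, theta, omega and zeta enzymes are soluble, the kappa enzyme sits in mitochondria and peroxisomes, and the microsomal enzymes span membranes. Many mouse GST genes are targets of NRF2, a transcription factor that binds antioxidant response elements when electrophiles or oxidants accumulate.

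GC1spg is a mouse cell line derived from germ cells and used as a model of spermatogonia, and all libraries came from this 1 line. All cells carried an siRNA, either against GFP (siGFP, the control) or against TGR5 (siTGR5), the membrane bile acid receptor encoded by Gpbar1. Under each siRNA, 5 libraries came from cells given the vehicle DMSO and 4 from cells given Bu, in all 18 libraries of poly(A) RNA in 4 groups. The stated dose of Bu was 200 µM and the stated exposure 24 h, given for DMSO and Bu cells without an siRNA being named, and no dose or time is given for the siTGR5 cells. Nothing says that replicates were separate cultures, and the p-values therefore measure a spread between libraries that may be technical. In such bulk RNA, fewer cells of a type and less RNA per cell cannot be told apart.

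The libraries held 24745523 to 49638166 counts (median 35445050.5). The fewest counts behind a value of the family were the 78 to 153 of Gstk1, and Gsta4 had 8322 to 19293. The targeted gene Gpbar1 was near the limit of detection, with 4 to 40 counts per library, and was lower with siTGR5 in DMSO cells (log2 fold change -0.99, adjusted p = 0.0135, edgeR) while in Bu cells the log2 fold change was -0.38 (adjusted p = 0.425). Of 14 spermatogonial markers in the table, 4 had a median over 1 CPM (Gfra1, Uchl1, Id4 and Etv5), whereas the germ cell genes Ddx4, Dazl, Zbtb16 and Stra8 were at or near 0 in every library. Of 7 Sertoli cell markers, 6 had a median over 1 CPM, led by Wt1 and Clu, so the markers do not set these cells apart as germ cells alone. Rod photoreceptor transcripts were present in 7 of 18 libraries: siGFP DMSO replicates 1 and 5, siGFP Bu replicates 2 and 4, siTGR5 DMSO replicate 4, and siTGR5 Bu replicates 1 and 3. Calls of the 10 genes that change without these libraries, and counts of the pathway lists for Bu against DMSO, are given both ways. Counts of those lists between siRNAs are given only with all libraries.

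Gsto1 and Mgst3 had the widest range of group means in the family, and the DNA just before their RefSeq start sites is shown because these genes carry the differences described below. The sequences are those of RefSeq on GRCm38.p6, written 5′ to 3′ on the strand of the gene. The stretch of Gsto1 is chr19:47854723-47854972 on the plus strand, and that of Mgst3 is chr1:167393842-167394091 on the minus strand.
Gsto1: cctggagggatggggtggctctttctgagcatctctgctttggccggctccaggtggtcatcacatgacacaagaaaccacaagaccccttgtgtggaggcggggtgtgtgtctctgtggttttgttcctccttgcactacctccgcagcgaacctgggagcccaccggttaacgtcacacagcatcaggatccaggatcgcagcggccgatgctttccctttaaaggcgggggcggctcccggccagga
Mgst3: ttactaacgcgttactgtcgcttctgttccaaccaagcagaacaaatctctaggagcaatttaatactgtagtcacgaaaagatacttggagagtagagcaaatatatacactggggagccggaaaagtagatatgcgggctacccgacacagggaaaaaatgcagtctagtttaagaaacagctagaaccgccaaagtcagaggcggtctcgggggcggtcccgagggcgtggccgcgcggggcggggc
Neither stretch held the core of the antioxidant response element, TGACNNNGC, on either strand, nor the cAMP response element TGACGTCA, a motif looked for after the values were seen. Of the 9 genes of the family with a RefSeq promoter window, 2 held the antioxidant response element core, against 14.0% of all 27025 genes with windows of this length. The cAMP response element was in none of the 9 and in 2.03% of all genes. Both matches are shown with 10 bases on each side and the core in capitals.
Gstm5: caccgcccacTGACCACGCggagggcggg
Mgst1: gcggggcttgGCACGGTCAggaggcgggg
The Gstm5 match began 42 bases before the RefSeq start, in chr3:107895802-107895830. The Mgst1 match began 56 bases before it, in chr6:138140461-138140489, lies on the opposite strand and is inside the gene as the deposited table bounds it. A match of letters is a description and not a binding site.

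The family was led by 3 genes in every group. Levels were compared between genes as normalized counts (CPM, counts relative to the scaled library total) per kb of transcript. In siGFP cells with DMSO, Gsta4, an alpha class enzyme that conjugates the lipid peroxidation product 4-hydroxynonenal, stood at 441 ± 16.3 CPM per kb (SD, n = 5). Mgst1, a microsomal transferase with glutathione peroxidase activity, followed at 250 ± 6.54 CPM per kb (SD, n = 5). Gsto1, which reduces dehydroascorbate and removes glutathione from glutathionylated proteins, was at 159 ± 3.55 CPM per kb (SD, n = 5). These were followed at a distance by Gstp1 (52.0 CPM per kb), Gstm1 (35.8), Gstm5 (30.0) and Mgst3 (27.9), and then by Gstz1 (14.9), Gstt1 (9.82) and Gstk1 (3.35 CPM per kb). The order of the 10 means was the same in all 4 groups. In siGFP DMSO libraries the only neighbours in this order whose ranges overlapped were Gstm5 and Mgst3, and in siGFP Bu libraries Gstm1 and Gstm5 overlapped as well.

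**Figure D1:**
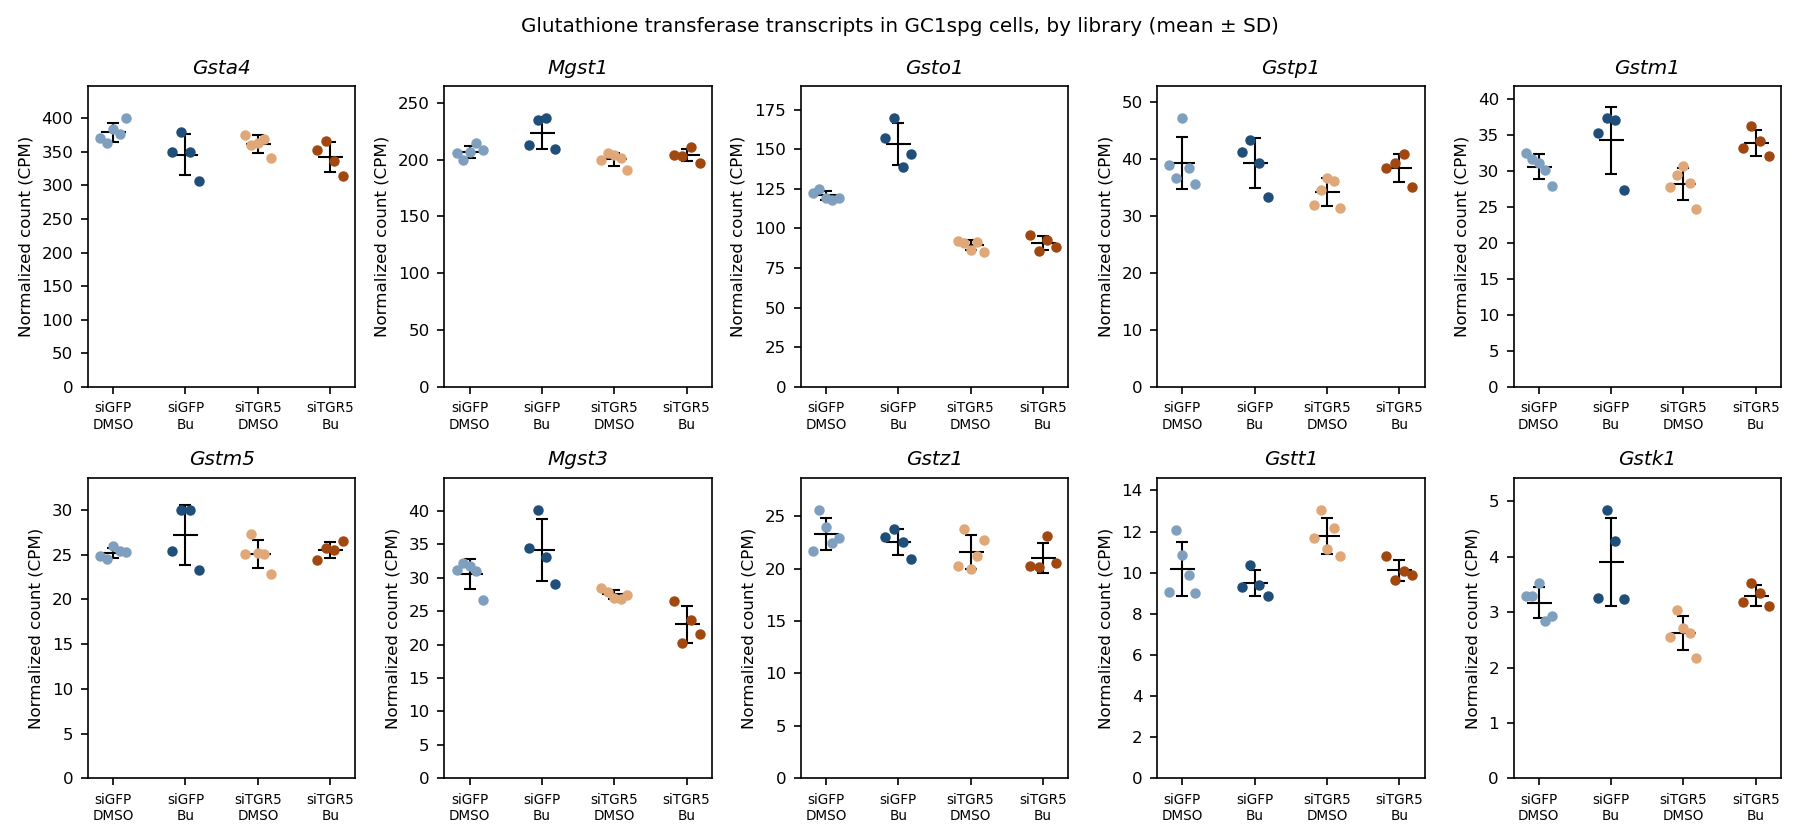
Normalized counts (CPM, vertical axes from 0) of the 10 transferase genes in each library of the 4 groups, ordered by level per kb, with the mean and SD of each group. Gsto1 lay between 118 and 125 CPM in the siGFP DMSO libraries, between 139 and 170 CPM with Bu, and at or below 95.7 CPM in all 9 siTGR5 libraries.

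In siGFP cells the make-up of the family differed between DMSO and Bu mainly through Gsta4 and Gsto1. Gsta4 took 42.1 to 45.0% of the summed CPM per kb of the 10 genes in siGFP DMSO libraries and 37.2 to 38.5% in siGFP Bu libraries. Gsto1 took 15.1 to 16.4% in the former and 17.2 to 20.2% in the latter, so neither range overlapped between DMSO and Bu. In siTGR5 cells the share of Gsta4 was 43.8 to 45.6% with DMSO and 41.5 to 44.6% with Bu, and that of Gsto1 was 12.0 to 12.7% and 11.8 to 13.2%, and both ranges overlapped between DMSO and Bu. Some smaller shares did not overlap between DMSO and Bu in siTGR5 cells. Gstm1 took 3.26 to 3.78% with DMSO and 4.08 to 4.45% with Bu. For Gstp1 the shares were 4.42 to 5.12% and 5.26 to 5.75%. Those of Gstk1 were 0.258 to 0.336% and 0.352 to 0.391%. Lower with Bu were Gstt1 (1.14 to 1.32%, then 0.973 to 1.09%) and Mgst3 (2.56 to 2.81%, then 1.94 to 2.54%). The shares sum to 100% in each library, so a rise of Gsto1 lowers the share of the other genes, and they were not tested.

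**Figure D2:**
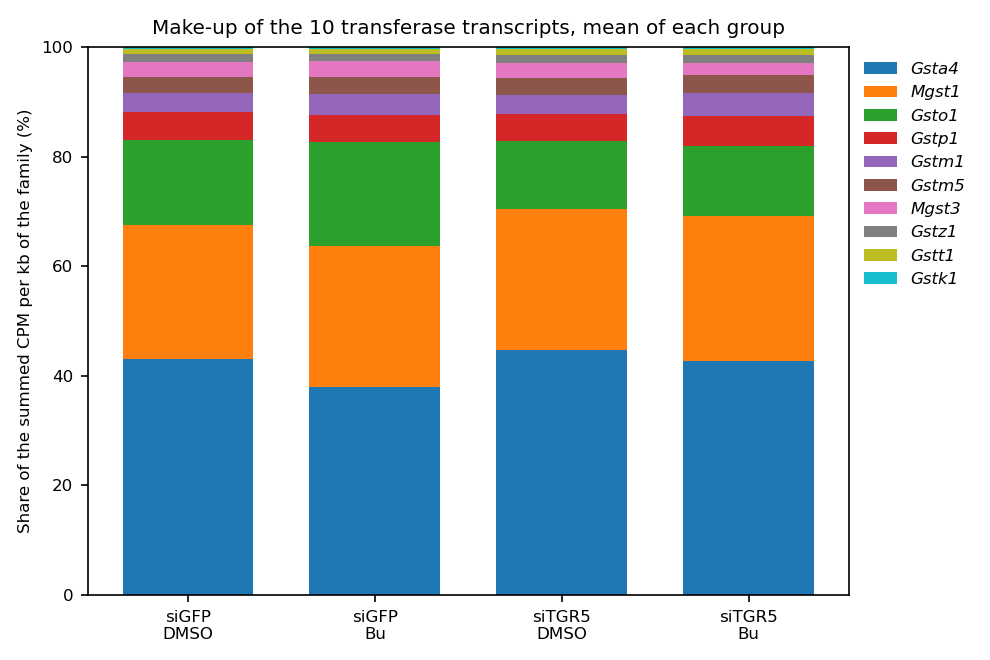
Mean share of each of the 10 genes in the summed CPM per kb of the family (vertical axis, %) in the 4 groups. The Gsto1 segment is at 15.5% in siGFP DMSO, 19.1% in siGFP Bu, 12.5% in siTGR5 DMSO and 12.8% in siTGR5 Bu.

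Bu raised Gsto1 in siGFP cells, and Gsto1 was the only 1 of the 10 genes called in this comparison. The siGFP DMSO libraries held 122, 125, 119, 118 and 119 CPM of Gsto1, and the siGFP Bu libraries held 157, 170, 139 and 147 CPM. Every Bu library was above every DMSO library. The mean went from 121 ± 2.70 (SD, n = 5) CPM to 153 ± 13.2 (SD, n = 4) CPM, a log2 fold change of 0.35 (standard error, SE, 0.05; adjusted p = 0.000138, edgeR quasi-likelihood test with Benjamini-Hochberg adjustment over 14304 genes). An exact two-sided permutation test over the 126 splits of these 9 libraries gave p = 0.00794, the smallest it can give, on a difference of 0.34 in log2(CPM + 0.5). Such permutation tests were run only on the 12 values of the family that edgeR had called, and are therefore no further support for those calls. Their p-values are given without adjustment over the 12 tests unless stated. The call of Gsto1 was kept in all 16 other settings tried, with log2 fold changes of 0.30 to 0.39. The name of Gsto1 is also in a gene list that the study drew from its own Bu and DMSO cells, which is therefore not independent evidence.

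Among all genes tested in siGFP cells, 28.1% were called at an adjusted p under 0.05, so 1 of 10 GST genes is a share below that background. The groups did not overlap for 1 of the 10 genes, against 23.6% of all genes. The median log2 fold change of the 10 was 0.11, beside 0.00 over all genes, and the median size of the change was 0.12 on the log2 scale in both. Mgst1 was at 207 ± 5.41 (SD, n = 5) CPM with DMSO and 224 ± 14.3 (SD, n = 4) CPM with Bu, a log2 fold change of 0.12 (SE 0.04) that did not pass the test (adjusted p = 0.0597, edgeR). Gsta4, the most abundant gene of the family, was at 379 ± 14.0 (SD, n = 5) CPM and 346 ± 29.9 (SD, n = 4) CPM, and its log2 fold change was -0.13 (SE 0.05, adjusted p = 0.0815, edgeR). Gstk1, a transferase of mitochondria and peroxisomes, had a log2 fold change of 0.30 with a wide interval of 0.02 to 0.57 (adjusted p = 0.0982, edgeR). For Gstp1, a pi class enzyme that also binds and restrains the kinase JNK, the log2 fold change was 0.00 with a 95% interval of -0.17 to 0.18. The other 5 genes (Gstm1, Gstm5, Gstt1, Gstz1 and Mgst3) had log2 fold changes of -0.09 to 0.17 and adjusted p of 0.126 to 0.644 (edgeR).

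Libraries of siGFP Bu stood apart in the family. Replicate 4 of siGFP Bu was the lowest of its group in 9 of the 10 GST genes, Gsto1 being lowest in replicate 3, while it was the lowest in 23.8% of all genes. Without it, 6 of the 10 genes were called, all of them higher with Bu (25.3% of all genes were called then, 12.8% higher): Gsto1 (log2 fold change 0.37), Gstk1 (0.38), Gstm1 (0.26), Mgst3 (0.24), Gstm5 (0.18) and Mgst1 (0.15). Replicate 2 of siGFP Bu was the highest of its group in 8 of the 10 genes, against 32.4% of all genes, and leaving it out gave 2 calls, 1 higher and 1 lower (25.4% of all genes called). Leaving out replicate 1 gave 3 calls, all higher (25.9% of all genes called). In replicate 4 the mean centred log2(CPM + 0.5) of 24 nuclear-retained transcripts, such as Malat1 and Neat1, was -0.08 against -0.39 to -0.33 in the other 3 siGFP Bu libraries. Replicates 2 and 4 both held rod transcripts. Without all libraries that held them, Gsto1 and Gstm1 were called in siGFP cells, the latter higher by 0.23 on the log2 scale (edgeR, adjusted p = 0.0135, where 20.5% of all genes were called). In siTGR5 DMSO, replicate 5 was lowest in 8 of the 10 genes (21.0% of all genes) and had the highest mean of these transcripts in its group, 0.42. The library with the highest such mean in siGFP DMSO, replicate 5 (0.15), was lowest in 4 of the 10 (27.3% of all genes). That of siTGR5 Bu, replicate 4 (0.07), was lowest in 5 of the 10 (26.2% of all genes). What part these differences have in the values of the family was not tested.

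In siTGR5 cells 5 of the 10 genes were called with Bu, 3 higher and 2 lower, where 30.7% of all 14372 genes tested were called (15.5% higher and 15.2% lower). For 4 of the 5 (Gstm1, Gstk1, Gstp1 and Gstt1) the effect of Bu was not called as different from that in siGFP cells (adjusted p of 0.739, 0.969, 0.546 and 0.712, edgeR). The groups did not overlap for 3 of the 10 (Gstm1, Gstk1 and Mgst3), against 24.9% of all genes. The median log2 fold change of the 10 was 0.03, beside 0.00 over all genes.

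Mgst3, a microsomal transferase with glutathione peroxidase activity, was among the genes that fell. It was at 28.4, 27.8, 27.0, 26.9 and 27.5 CPM in the siTGR5 DMSO libraries and at 26.6, 20.3, 23.6 and 21.6 CPM in the siTGR5 Bu libraries. All Bu libraries were below all DMSO libraries, replicate 1 of Bu only narrowly. The log2 fold change was -0.25 (SE 0.06, adjusted p = 0.00604, edgeR), and the exact two-sided permutation test over 126 splits gave p = 0.00794 on a difference of -0.26 in log2(CPM + 0.5).

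Gstm1, a mu class enzyme of broad substrate range, rose. Its levels were 27.8, 29.4, 30.7, 28.3 and 24.8 CPM with DMSO and 33.3, 36.3, 34.2 and 32.1 CPM with Bu, with no overlap. The log2 fold change was 0.27 (SE 0.06, adjusted p = 0.0018, edgeR). These calls of Mgst3 and Gstm1 were kept in all 16 other settings. Of the 50-base stretches of Gstm1 transcripts, 18.9% also occur in other genes, among them Gstm2 and Gstm3. Only reads that aligned uniquely were counted, so reads of these stretches may have been dropped.

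The other 3 calls in siTGR5 cells were less firm. Gstk1 went from 2.62 ± 0.313 (SD, n = 5) CPM to 3.29 ± 0.188 (SD, n = 4) CPM, a log2 fold change of 0.33 (adjusted p = 0.0372, edgeR) that passed the threshold in 3 of 16 other settings. Gstp1 went from 34.2 ± 2.45 to 38.5 ± 2.47 CPM (SD, n = 5 and 4), a log2 fold change of 0.17 (adjusted p = 0.0273, edgeR) that passed in 8 of 16, and its exact two-sided permutation p was 0.0556 on a difference of 0.17. Gstt1, a theta class enzyme that acts on small halogenated compounds, went from 11.8 ± 0.879 to 10.1 ± 0.516 CPM (SD, n = 5 and 4), a log2 fold change of -0.21 (adjusted p = 0.0271, edgeR) that passed in 9 of 16. None of these 3 was called without the libraries that held rod transcripts (adjusted p of 0.18, 0.226 and 0.0848 for Gstk1, Gstp1 and Gstt1, edgeR), a setting with fewer libraries chosen after seeing the data. Of the 50-base stretches of Gstp1, 33.7% also occur in Gstp2 or a Gstp pseudogene. Gsto1, the gene raised by Bu in siGFP cells, was at 92.3, 91.0, 86.4, 91.4 and 85.3 CPM with DMSO and at 95.7, 85.6, 92.6 and 88.4 CPM with Bu in siTGR5 cells. The log2 fold change was 0.03 (95% interval -0.05 to 0.11, adjusted p = 0.64, edgeR), and the groups overlapped.

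**Figure D3:**
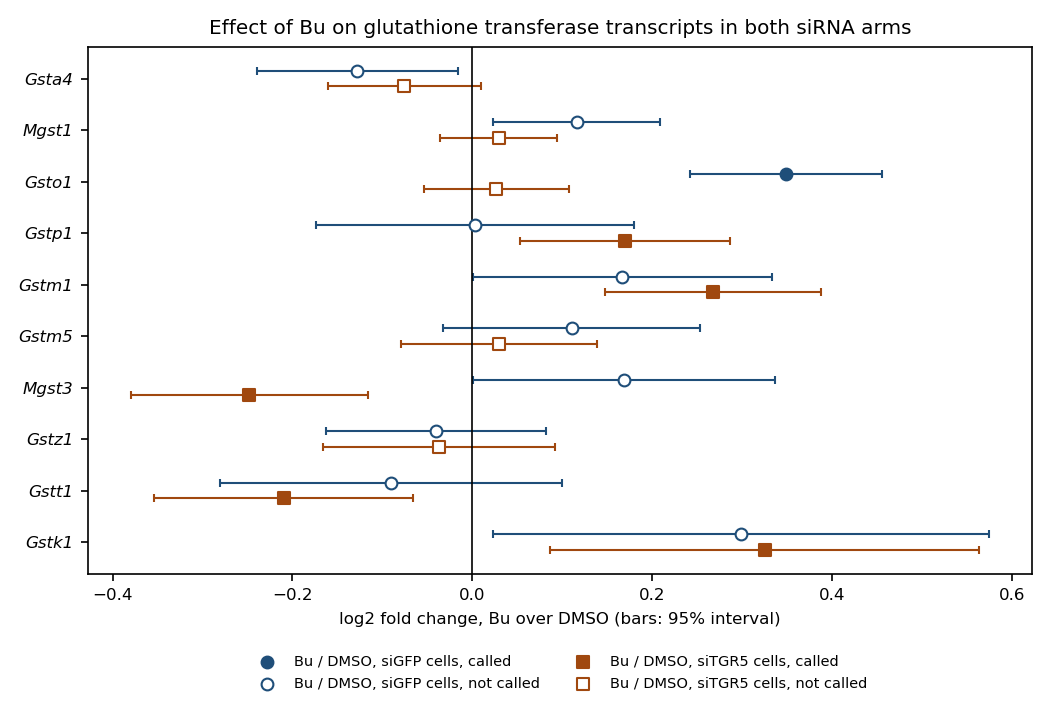
Log2 fold change of Bu over DMSO (horizontal axis) with its 95% interval for each of the 10 genes in siGFP cells (circles) and siTGR5 cells (squares), filled where called at an adjusted p under 0.05. Gsto1 was at 0.35 in siGFP cells and 0.03 in siTGR5 cells, and Mgst3 was at 0.17 and -0.25.

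The effect of Bu on Gsto1 differed between the siRNAs. In a fit of all 18 libraries, the effect in siTGR5 cells was lower than that in siGFP cells by a log2 difference of -0.32 (SE 0.07, 95% interval -0.46 to -0.19, adjusted p = 0.0149, edgeR), and Gsto1 was the only 1 of the 10 genes called, where 1.37% of 14783 genes were called (0.649% in this direction and 0.724% in the other). The call was kept in 23 of 24 other settings. The exception was the fit without the 7 libraries with rod transcripts, where the difference was again -0.32 but the adjusted p was 0.0937 (edgeR). For Mgst3 the difference was -0.42 (SE 0.11, 95% interval -0.64 to -0.19), with opposite signs of the effect of Bu in the 2 siRNA arms, and it missed the threshold (adjusted p = 0.0599, edgeR). It passed in 6 of 24 other settings, among them DESeq2 (adjusted p = 0.0117) and the fit without rod libraries (difference -0.49, adjusted p = 0.0231, edgeR). The other 8 genes had differences of -0.12 to 0.17 and adjusted p of 0.518 or more (edgeR). For these 8 a difference between the siRNAs was not detected, and the intervals still allow one: that of Gstm1 ran from -0.11 to 0.32, and that of Gstk1 from -0.33 to 0.38.

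With siTGR5 in place of siGFP, Gsto1 was lower whether the cells received DMSO or Bu. These comparisons use the same libraries as the comparisons of Bu with DMSO and are no further samples. In DMSO cells no siTGR5 library (85.3 to 92.3 CPM) reached the siGFP libraries (118 to 125 CPM), and the siTGR5 mean was 73.9% of the siGFP mean. The log2 fold change was -0.44 (SE 0.03, adjusted p = 5.93e-08, edgeR), and the exact two-sided permutation test over 252 splits gave p = 0.00794, its smallest value. In Bu cells the log2 fold change was -0.77 (SE 0.06, adjusted p = 4.33e-07, edgeR), with a siTGR5 mean at 59.1% of the siGFP mean and no overlap. The exact two-sided permutation p over 70 splits was 0.0286, again its smallest value, on a difference of -0.75.

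Mgst3 was the other member called lower with siTGR5 under both conditions. In Bu cells it stood at 34.5, 40.2, 33.0 and 29.0 CPM with siGFP and at 26.6, 20.3, 23.6 and 21.6 CPM with siTGR5. The ranges did not overlap, and the log2 fold change was -0.57 (SE 0.09, adjusted p = 0.000344, edgeR), with an exact two-sided permutation p of 0.0286. In DMSO cells the siGFP libraries held 31.2, 32.2, 31.8, 31.0 and 26.6 CPM, the last of them below every siTGR5 library, and the log2 fold change was -0.15 (SE 0.05, adjusted p = 0.0306, edgeR), a call kept in 9 of 17 other settings, with an exact two-sided permutation p of 0.0476. Gstp1 was also called lower in DMSO (-0.20, adjusted p = 0.0341, edgeR, kept in 12 of 17 settings), with an exact two-sided permutation p of 0.0397. Adjusted over all permutation tests run, the permutation p in DMSO was 0.0571 for Mgst3 and 0.0529 for Gstp1, both over 0.05. Mgst1 was called lower in Bu (-0.14, adjusted p = 0.0344, edgeR, kept in 8 of 15 settings), with an exact two-sided permutation p of 0.0571, and was not called without the libraries with rod transcripts (adjusted p = 0.0622, edgeR, where 18.3% of all genes were called). In all, 3 of the 10 genes were called in each of these comparisons, all lower, where 28.3% of all genes were called in DMSO (14.4% lower) and 30.3% in Bu (16.5% lower). The groups did not overlap for 1 gene in DMSO and for 2 in Bu, where 18.9% and 29.8% of all genes did not overlap. The median log2 fold change of the 10 was -0.11 in both, beside 0.00 over all genes, and Gstt1 alone had a positive value in each (0.22 in DMSO, adjusted p = 0.0546, and 0.09 in Bu, adjusted p = 0.393, edgeR). The nuclear-retained transcripts moved with these groups too: 17 of 24 were called higher and 1 lower with siTGR5 in Bu, and 7 higher and 2 lower with siTGR5 in DMSO. With Bu, 17 were called lower and 1 higher in siGFP cells, and 10 lower and 2 higher in siTGR5 cells. Of all genes, 28.1% were called with Bu in siGFP cells (13.8% lower) and 30.7% in siTGR5 cells (15.2% lower). Without the libraries with rod transcripts, 16 were lower and 1 higher in siGFP cells, and 6 lower and 1 higher in siTGR5 cells. Of all genes, 20.5% and 18.2% were called then. The part of the nuclear-retained transcripts in the values of the GST genes was not tested.

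Further transferase genes of the mouse were looked at in the same way. Of 19 further genes listed, 12 passed the filter. In siGFP cells 0 of the 12 were called with edgeR, 0 with DESeq2, and 0 had an unadjusted p under 0.05 (edgeR). Over all genes, 28.1% were called there with edgeR. In siTGR5 cells 2 rose, where 15.5% of all genes were called higher. Gstm6 (log2 fold change 0.78) went from 1.03 to 1.77 CPM, and Gsta3 (0.52), an alpha class enzyme, from 7.81 to 11.1 CPM. For neither was the effect of Bu called as different from that in siGFP cells (adjusted p of 0.288 and 0.0728, edgeR). For this difference 0 of the 12 were called, where 1.37% of all genes were. DESeq2 called 1 of the 12, where it called 2.72% of all genes. Without the libraries with rod transcripts, 2 of the 12 were again called higher in siTGR5 cells (8.78% of all genes). In siGFP cells 0 were called then, against 20.5% of all genes. The alpha class genes Gsta1 and Gsta2, near copies of each other, had 66 and 13 counts over the 18 libraries together, and since reads that fit both copies are not counted, low expression is not shown by this. Between siRNAs in DMSO, 5 of the 12 were lower with siTGR5 (14.4% of all genes) and 1, Gstt3, was higher (0.22, with 13.8% of all genes higher). Among the lower were Gsto2 (-0.42), the omega class gene next to Gsto1, Gstcd (-0.40) and Gsta3 (-0.55). In Bu, 5 were lower and 1 higher with siTGR5, against 16.5% and 13.8% of all genes. Gstm2, at 56.0 CPM in siGFP DMSO cells, had log2 fold changes of -0.03 and 0.05 with Bu in siGFP and siTGR5 cells, neither called.

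Further lists held genes that make glutathione, keep it reduced, remove peroxides, export or break down its conjugates, or regulate NRF2. Over all genes, 28.1% were called with Bu in siGFP cells (14.3% higher, 13.8% lower). In siTGR5 cells 30.7% were called (15.5% higher, 15.2% lower). Without the libraries with rod transcripts, 20.5% of all genes were called in siGFP cells and 18.2% in siTGR5 cells. Of 15 tested genes of glutathione reduction and peroxide removal, 10 rose and 0 fell with Bu in siGFP cells, with a median log2 fold change of 0.16 (9 rose and 0 fell with DESeq2, and 7 rose and 0 fell without the libraries with rod transcripts). The thioredoxin reductase gene Txnrd1 went from 221 ± 3.26 (SD, n = 5) CPM to 313 ± 8.76 (SD, n = 4) CPM, a log2 fold change of 0.51. Esd, which frees glutathione from S-formylglutathione, had a log2 fold change of 0.47. The peroxiredoxin gene Prdx1 (0.33) and the glutaredoxin gene Glrx3 (0.30) followed. The glutathione reductase gene Gsr rose by only 0.11 (adjusted p = 0.0431, edgeR). In siTGR5 cells 6 of the 15 rose, Txnrd1 by 0.71 on the log2 scale, and 1, Glrx2, fell, and these counts were the same without the libraries with rod transcripts.

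Of 11 tested genes of glutathione synthesis and precursor supply, 4 rose and 1 fell with Bu in siGFP cells. Gclc, the catalytic subunit of glutamate-cysteine ligase and the rate-limiting enzyme of glutathione synthesis, went from 39.2 ± 1.40 to 55.3 ± 3.31 CPM (SD, n = 5 and 4), a log2 fold change of 0.50, and had 0.47 in siTGR5 cells. Glutathione synthetase Gss rose by 0.26 and the amino acid transporter subunit Slc3a2 by 0.14 on the log2 scale, while the glutamine transporter Slc1a5 fell by 0.37. In siTGR5 cells 6 rose and 2 fell. Without the libraries with rod transcripts, 2 rose and 1 fell in siGFP cells, and 5 rose and 1 fell in siTGR5 cells.

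Of 17 tested genes for export and breakdown of glutathione conjugates, 2 rose and 2 fell with Bu in siGFP cells. Aminopeptidase N, Anpep, rose by 0.47 and the transporter Abcc4 by 0.20 on the log2 scale. Abcc10, another transporter of this family, fell by 0.32 and Chac1, which degrades glutathione, fell by 0.21. In siTGR5 cells 3 rose and 1 fell. Without the libraries with rod transcripts, 2 of 16 tested rose and 2 fell in siGFP cells, and 2 of 17 rose and 1 fell in siTGR5 cells. For NRF2 and its regulators, 2 of 12 rose and 4 fell in siGFP cells. Nfe2l2, which encodes NRF2, rose by 0.16 on the log2 scale, while its small MAF partner Mafg fell by 0.19, the related factor Nfe2l1 by 0.15 and the repressor Bach2 by 0.29. In siTGR5 cells 2 rose and 3 fell, and Nfe2l2 had a log2 fold change of -0.04 (adjusted p = 0.463, edgeR). The effect of Bu on Nfe2l2 was not called as different between the siRNAs (difference -0.20, adjusted p = 0.0978, edgeR). For this difference 0 of the 12 genes were called, where 1.37% of all genes were. Without the libraries with rod transcripts, 2 rose and 2 fell in siGFP cells, and 1 rose and 2 fell in siTGR5 cells.

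**Figure D4:**
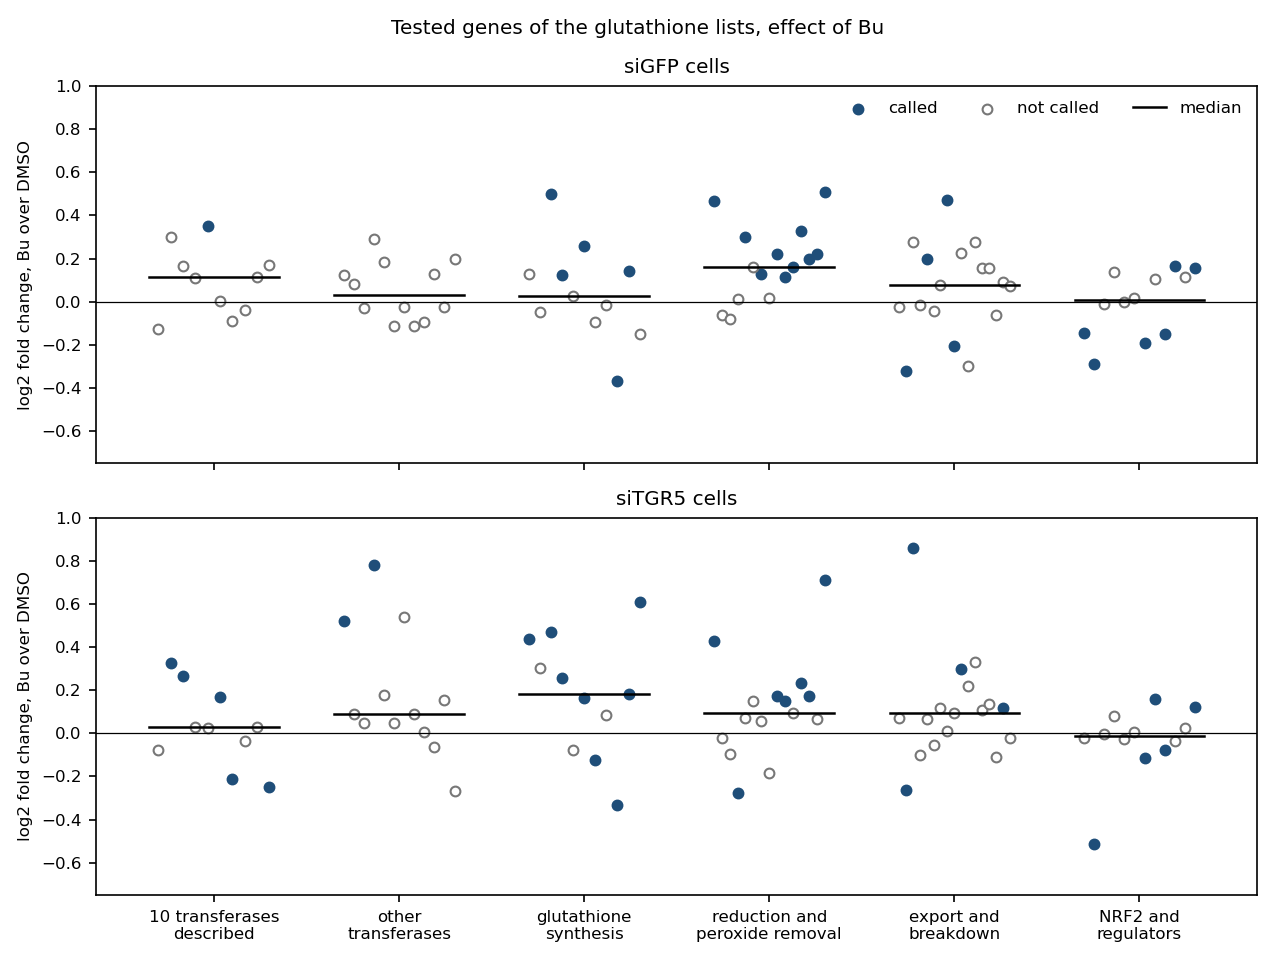
Log2 fold change of Bu over DMSO (vertical axes) for each tested gene of 6 glutathione lists in siGFP cells (top) and siTGR5 cells (bottom), filled where called, with the median of each list as a line. In siGFP cells 1 of 10 described transferases and 0 of 12 other transferases were called, against 10 of 15 genes of glutathione reduction and peroxide removal.

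The genes with the pattern most like that of Gsto1 lay outside the family. Likeness was measured as the root mean square difference of centred log2(CPM + 0.5) over the 18 libraries, for 14782 other genes. Nearest to Gsto1 was the ribosomal protein gene Rps20 (0.09), then Cd24a, a surface glycoprotein (0.10), Trmt10a, a tRNA methyltransferase (0.11), Lrch2 (0.11) and Ecscr (0.11). The nearest of the other described members, Mgst3, came 259th at 0.19. The places of the further transferase genes were not looked up. Nearest to Mgst3 were the autophagy gene Atg7 (0.09), Cmtm3 (0.09), Spsb2 (0.10), the annexin gene Anxa8 (0.10) and Rgs10, a regulator of G protein signalling (0.10), and Gsto1 came 1406th.

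The 10 genes lie on 7 chromosomes of GRCm38. Gsto1 (ENSMUSG00000025068) spans chr19:47854970-47864790 on the plus strand and overlaps Cfap43 on the opposite strand, with no exonic base in common. Mgst3 (ENSMUSG00000026688) spans chr1:167371966-167393841 on the minus strand and overlaps no other annotated gene. No 50-base stretch of their transcripts, nor of those of Gsta4, Gstt1, Gstk1 and Mgst1, occurs in another gene. Gstm5 shares 13.9% of its exonic bases with the antisense gene 4933431E20Rik and Gstz1 9.14% with Pomt2 on the opposite strand, and whether the counting used strand is not given in the sources used here, so the values of Gstm5 and Gstz1 may hold reads of those genes.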

How the data were processed

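Single-end libraries of poly(A) RNA of the 18 samples were sequenced by the authors, who per their methods mapped reads to mm10 with Hisat2 and Bowtie2 and used HTSeq with Ensembl genes to count reads that aligned uniquely. The submitters' processing notes instead give TopHat2 as the mapper, with Bowtie2 2.1.0, and also list DESeq2 1.0.19 and bcl2fastq 2.17.1.14. Whether counting used strand is not given in the sources used here. The deposited table has 74 columns, of which the 18 of raw counts were used. Not used were 36 further columns per sample (normalized and length-scaled values) and 9 that hold the authors' comparisons (fold changes and p-values). The deposited median transcript length of each gene, another value in bases, divided CPM for levels per kb.

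Groups followed the sample labels. The count analysis used edgeR 4.0.16 in R 4.3.3, with TMM factors, filterByExpr (minimum count 10, minimum total 15) and the quasi-likelihood test of the libraries compared, with Benjamini-Hochberg adjustment over all genes tested and a call under 0.05. The difference of the Bu effects was fitted over all 18 libraries. CPM used TMM factors of all libraries, and 0.5 was added before logarithms. Members called by edgeR were also tested by exact permutation. Scripts were tested on simulated counts. Of 32 pairs of replicate libraries, the closest had a chi-square of 3.08 per degree of freedom, so none was within sampling noise. The plots were made in matplotlib 3.10.9 under Python 3.11.15.

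The text names all 10 members, up to 4 genes of each pathway list with the smallest p for Bu in siGFP cells, and the 5 genes most like each of the 2 members with the widest range of group means. Other transferases, Gsr and genes called in other comparisons were named after their values were seen. The members and lists were chosen with earlier results of these data known. Alternatives tried were RLE size factors, DESeq2 1.42.0, no filter, a mean of at least 1 CPM, the replicate number as a block, all 18 libraries in 1 fit, and leaving out each library in turn. Leaving out the libraries with rod transcripts was chosen after seeing the data. The values behind the choice of those libraries are not reported here.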

Additional observations from a re-analysis of the deposited data

Results flagged for a closer look

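In 40 sets of values, 1 for each of the 10 genes in each of the 4 groups, 2 had a library far from the rest of its group by Dixon's criterion, and chance gives about 1 in 20. Gstz1 was at 23.1 CPM in siTGR5 Bu replicate 3, above the 20.2 to 20.5 CPM of the other 3 libraries of that group. Mgst3 was at 26.6 CPM in siGFP DMSO replicate 5, below the 31.0 to 32.2 CPM of the other 4, and that library also held rod transcripts. The effect of Bu on Gsto1 differed between siTGR5 and siGFP cells by -0.32 on the log2 scale (adjusted p = 0.0149, edgeR), with all 4 siGFP Bu libraries above all 5 siGFP DMSO libraries and overlapping values in siTGR5 cells.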

How the results depend on the processing

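The number of GST genes called with Bu in siGFP cells, 1, became 4 with no filter on low counts (14.3% of all genes called), 3 with all 18 libraries in 1 fit (31.8%) and 2 without the libraries with rod transcripts (20.5%), and ran from 1 to 6 when 1 library was left out (22.2 to 29.0%). In siTGR5 cells, 5 became 3 with the replicate number as a block (28.3%), 2 with all 18 libraries in 1 fit (26.9%) and 2 without rod libraries (18.2%), and ran from 2 to 4 with 1 library left out (23.3 to 31.2%). For the difference between siRNAs, 1 became 2 with DESeq2 (2.72%), with no filter (1.36%) and with the replicate block (1.79%), and ran from 1 to 2 (0.581 to 1.81%). For siTGR5 against siGFP, 3 in DMSO became 6 with the replicate block (31.4%) and ran from 1 to 4 (23.7 to 30.3%, 1 without siGFP DMSO replicate 1 or 4), and 3 in Bu ran from 2 to 3 (22.3 to 29.5%). Replicate numbers do not pair these libraries: same-numbered libraries correlated at -0.20 to 0.19 in their deviations from the group means. Counts of calls with the block are therefore given only here. The block is still among the other settings in which the calls of single genes were counted above. Over all genes, the 203 calls for the difference became 402 with DESeq2, 411 with no filter and 47 without rod libraries, and ran from 87 to 270 with 1 library left out. Log2 fold changes that turned sign were all of uncalled genes. Gstp1 with Bu in siGFP cells was -0.0026 with DESeq2, -0.0021 with RLE factors, -0.0079 at a mean of at least 1 CPM, -0.031 with the replicate block, -0.0017 with all 18 libraries and -0.011 without rod libraries (-0.044 to 0.075 with 1 library left out). In siTGR5 cells Gstm5 was -0.0025 with the replicate block (-0.0074 to 0.055), and Gsto1 -0.028 without rod libraries (-0.0017 to 0.048). The difference for Gstz1 was -0.00024 at a mean of at least 1 CPM and -0.011 without rod libraries (-0.042 to 0.033). With 1 library left out, the difference for Gsta4 ran from -0.0014 to 0.099 and for Gstk1 from -0.061 to 0.15, Gstm5 in DMSO from -0.042 to 0.023, and in Bu Gsta4 from -0.074 to 0.025, Gstm1 from -0.11 to 0.025 and Gstp1 from -0.11 to 0.0097. The calls of Gsto1 (apart from the difference without rod libraries), of Mgst3 in siTGR5 cells and between siRNAs in Bu, and of Gstm1 in siTGR5 cells kept direction and threshold in every setting run.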
